A study of Mus musculus with 6 samples.

Results

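Interferon-stimulated genes are the genes that a cell switches on when it meets an interferon. The 33 described here were picked by gene symbol, and all 33 were found among the 32061 genes of the count table. They were followed in hepatocytes, the main metabolic cell type of the liver, which were isolated from mice of 10 to 12 weeks by collagenase perfusion and a density gradient, and sequenced as polyadenylated RNA. The 3 samples called senescent came from AhCre+Mdm2fl/fl mice, which carry a conditional Mdm2 allele and a Cre recombinase driven by a promoter that aryl hydrocarbon receptor ligands switch on. The 3 samples called healthy came from AhCre- mice, with an Mdm2 genotype not given in the sources used here. The presence of Cre and the loss of Mdm2 cannot be told apart. All 6 samples, healthy ones included, came from mice that had received the Cre-inducing ligand β-naphthoflavone in corn oil, 20 mg/kg over 48 h. Nothing says that the samples are separate animals, and p-values then measure only the spread between these samples, which may be technical.

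Mdm2, the targeted gene, encodes the ubiquitin ligase that keeps p53 low, and is itself a target of p53. It had 465, 463 and 501 CPM (counts per 1e+06 of the library size scaled by TMM) in senescent replicates 1, 2 and 3 and 19.0, 22.7 and 22.0 CPM in the healthy ones. A count over the whole gene does not show whether part of it was deleted. Libraries held 28799392 to 33267299 counts. Of the 12949 genes with enough counts to be tested, edgeR's quasi-likelihood test called 2644 higher and 2680 lower in senescent cells at a Benjamini-Hochberg adjusted p under 0.05. The hepatocyte markers were abundant in all 6 libraries, although 6 of 8 of them fell in senescent cells.

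Type I interferons bind the receptor chains IFNAR1 and IFNAR2, and the kinases JAK1 and TYK2 then activate a complex that includes STAT2 and IRF9 and binds a promoter motif called the interferon-stimulated response element (ISRE). Interferon gamma works through IFNGR1 and IFNGR2 and a different motif, the gamma-activated site (GAS), and is the main inducer of the GBP and IRG GTPases, which attack the vacuoles of intracellular microbes. The other induced proteins block viral entry, translation or replication, sense viral RNA, or, as IRF7, STAT2 and IRF9 do, feed the pathway itself, and hepatocytes are known to answer both interferon types.

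The promoter sequences of several members are shown because genes that share this motif, and even a pair of neighbours, differed in their response. Sequences are from RefSeq on GRCm38.p6, in windows of 300 bases around each start, and 24 of the 33 members had a window there. The ISRE was searched as GAAANNGAAA on both strands, where N is any base, and matches are in capitals. On the minus strand the match reads as TTTC pairs. The first set shows 5 members: Isg15 (chr4:156200819-156200918, minus strand), Ifit1 (chr19:34640709-34640828, plus strand), Ifit3 (chr19:34583349-34583448, plus strand), Irgm1 (chr11:48871421-48871520, minus strand) and, downstream of its start, Ifih1 (chr2:62646206-62646235, minus strand).
Isg15: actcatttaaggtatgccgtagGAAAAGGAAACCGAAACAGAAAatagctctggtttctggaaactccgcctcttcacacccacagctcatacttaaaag
Ifit1: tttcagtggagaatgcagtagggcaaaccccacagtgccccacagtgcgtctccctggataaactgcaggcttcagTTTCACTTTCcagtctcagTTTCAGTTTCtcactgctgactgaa
Ifit3: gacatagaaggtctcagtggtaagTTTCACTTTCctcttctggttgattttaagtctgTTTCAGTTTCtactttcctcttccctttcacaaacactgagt
Irgm1: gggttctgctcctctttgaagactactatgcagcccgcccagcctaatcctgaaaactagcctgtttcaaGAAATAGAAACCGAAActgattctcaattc
Ifih1: gagaagagaatcGAAACAGAAAccgatctg
Isg15 has 3 overlapping matches, Ifit1, Ifit3 and Irgm1 have 2 each, those of Irgm1 overlapping, and Ifih1 has 1. The stretch of Ifit3b at chr19:34607745-34607844, plus strand, is the same as that of Ifit3 at all 100 bases.

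The second set is a pair of neighbours on chromosome 12 that are transcribed away from each other from starts 12752 bases apart, shown for the 250 bases ahead of each RefSeq start: Rsad2 (chr12:26456453-26456702, minus strand) and Cmpk2 (chr12:26468965-26469214, plus strand).
Rsad2: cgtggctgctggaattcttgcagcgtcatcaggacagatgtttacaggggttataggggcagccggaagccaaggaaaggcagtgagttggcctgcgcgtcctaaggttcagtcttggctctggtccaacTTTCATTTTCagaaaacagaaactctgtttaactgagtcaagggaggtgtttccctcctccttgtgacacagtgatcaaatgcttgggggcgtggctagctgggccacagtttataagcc
Cmpk2: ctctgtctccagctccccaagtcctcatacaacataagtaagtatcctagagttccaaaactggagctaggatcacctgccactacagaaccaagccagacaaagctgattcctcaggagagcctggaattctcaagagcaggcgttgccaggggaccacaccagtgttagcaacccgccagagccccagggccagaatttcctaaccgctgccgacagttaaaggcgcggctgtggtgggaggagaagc
The Rsad2 stretch has 1 ISRE match and the Cmpk2 stretch has 0, which says only that these letters are not in this window. An ISRE match was present in 14 of the 24 members with a window (58.3%), against 3.98% of all 26994 genes with one. The GAS, searched as TTCNNNGAA, was in 25.0% of these members and 9.55% of all genes, and in Bst2 it overlapped an ISRE match. A p53 half-site was in 20.8% of these members and 9.55% of all genes. By response, the ISRE was in 6 of 7 members that fell, 7 of 15 that were not called and 1 of 2 that rose. A match is a description of the sequence and not a binding site.

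The members did not move as a group. All 33 were tested, 3 rose in senescent cells (9.09%, where 20.4% of all genes tested were called higher), 9 fell (27.3%, where 20.7% of all genes were called lower) and 21 were not called. The 12 called members are 36.4% of the list, beside 41.1% of all genes called in either direction. Cmpk2 stood far above the rest with a 14.1-fold rise, followed by Oas2 and the RNA sensor gene Ifih1 at 2.13-fold and 1.82-fold. Falls were moderate, from 1.38-fold for Irf9 to 2.72-fold for Ifit3b. The median log2 fold change of the members was -0.28 (senescent minus healthy), beside 0.01 for all genes tested. All 3 senescent libraries lay above all 3 healthy ones for 2 members (26.8% of all genes did so) and below them for 10 (27.2% of all genes). In bulk RNA, fewer cells of a type and less RNA per cell cannot be told apart.

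**Figure D1:**
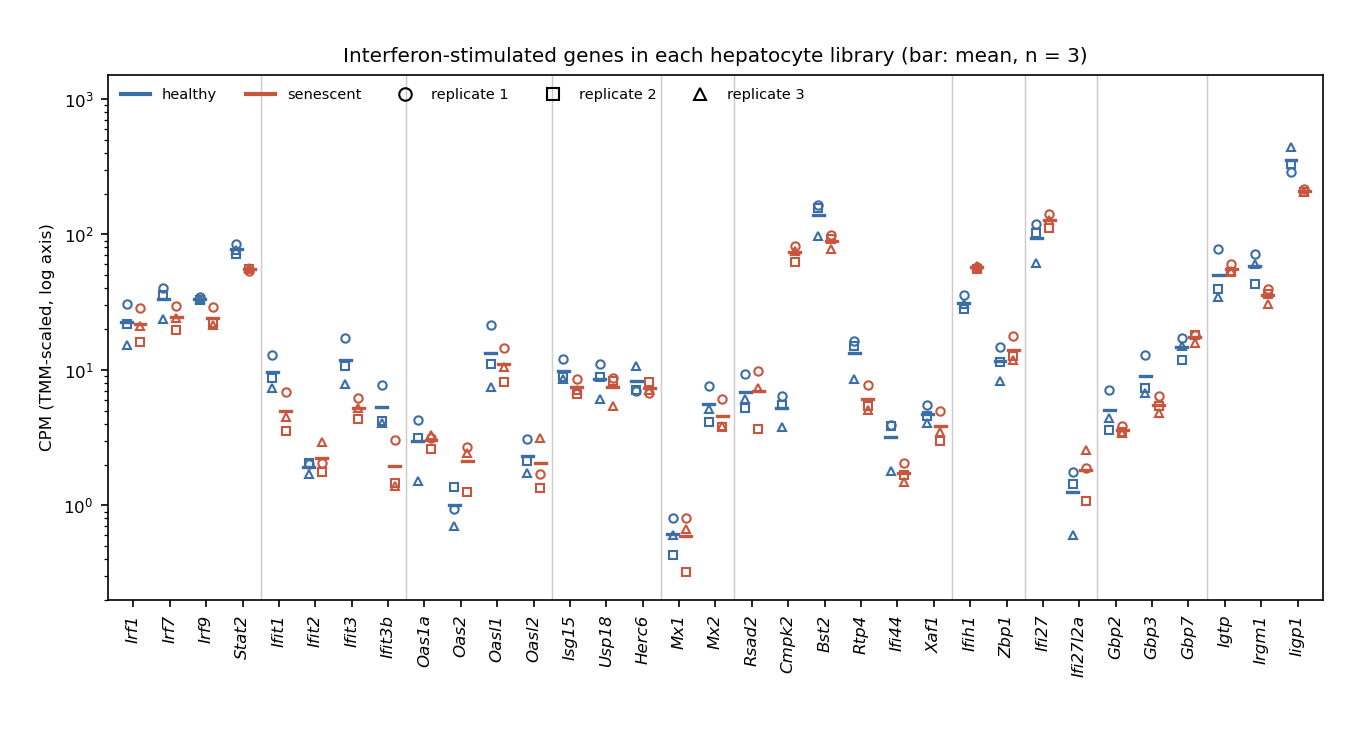
Each member's level in CPM on a log axis, with healthy libraries in blue and senescent ones in red, the replicate given by the symbol's shape and the group mean by a bar; grey lines part the functional groups. Cmpk2 has senescent libraries at 62.9 to 82.1 CPM and healthy ones at 3.78 to 6.37 CPM, and the groups of 21 members overlap.

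The size of these calls depended on how libraries were scaled. Scaled by total library size instead, all genes had a median log2 fold change of 0.33, and that of the members changed sign to 0.04, which is again below that of all genes. Under that scaling 5 members were called higher (37.5% of all genes) and 3 lower (9.92% of all genes): Ifit3, Ifit3b and Rtp4 kept their call. Irf9 (edgeR adjusted p = 0.39), Stat2 (0.22), Ifit1 (0.10), Bst2 (0.18), Irgm1 (0.10) and Iigp1 (0.059) kept a negative sign without a call, and Ifi27 and Gbp7 were called higher. Cmpk2, Ifih1 and Oas2 were higher under both.

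**Figure D2:**
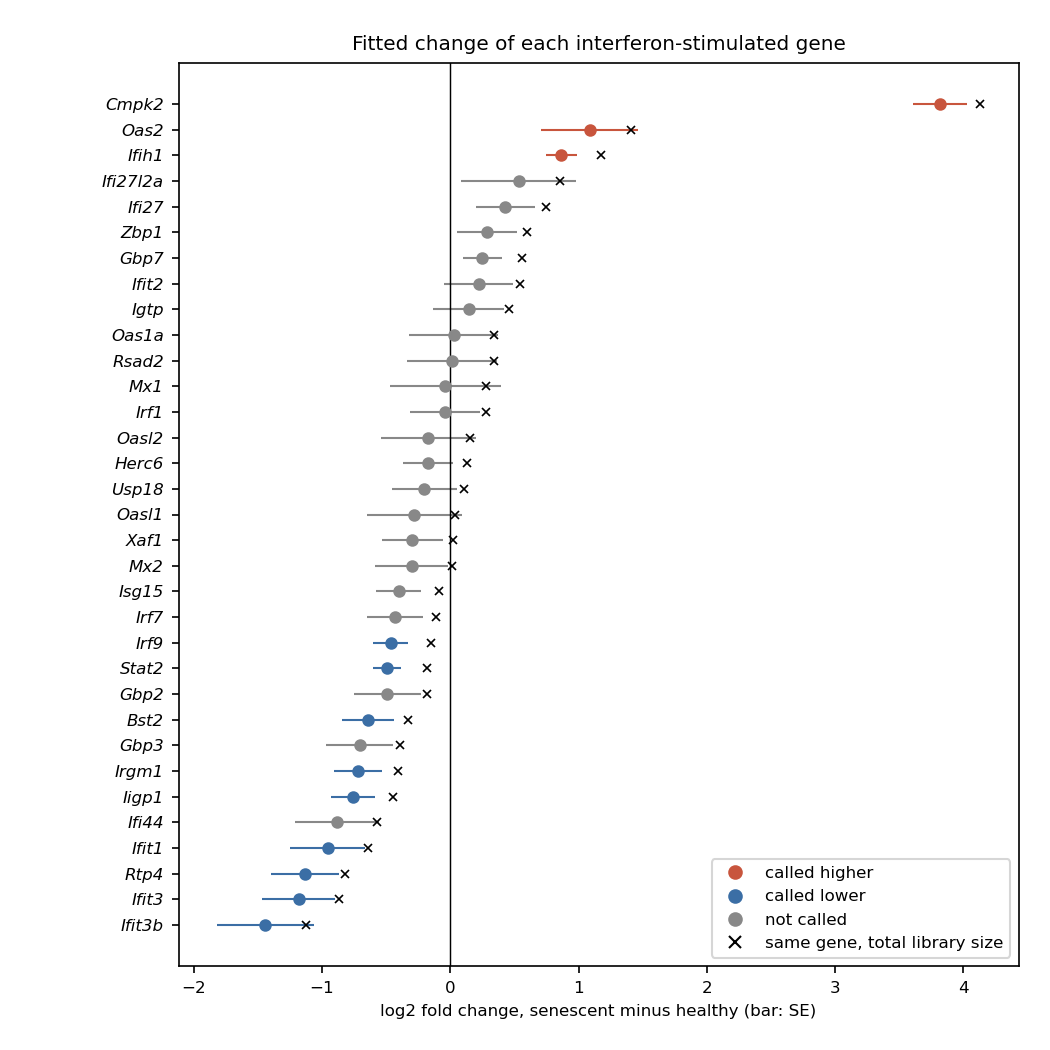
Log2 fold change of each member, senescent minus healthy, with its SE under TMM scaling (circles, coloured by call) and the same value under total library size (crosses). The crosses lie to the right of the circles by about the shift of all genes, and Cmpk2, Oas2 and Ifih1 are higher under both.

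Among the transcription factors, the genes of 2 parts of the type I complex, Stat2 and Irf9, fell while the other members of this group were not called. Stat2 (ENSMUSG00000040033, chromosome 10, 128270559 to 128292849), whose protein carries the activating part of that complex, had 54.0, 55.6 and 56.9 CPM in senescent replicates 1, 2 and 3 and 85.6, 71.6 and 76.8 CPM in healthy ones. The groups do not overlap, and the log2 fold change was -0.49 ± 0.11 (SE, edgeR adjusted p = 0.0084). Irf9, the DNA-binding part, had 28.9, 22.2 and 21.4 CPM in senescent and 34.2, 32.6 and 33.2 CPM in healthy libraries. It was close to equal in the healthy libraries and below them in all 3 senescent ones, with a log2 fold change of -0.46 ± 0.13 (edgeR adjusted p = 0.024). Irf7, which amplifies type I interferon production, had 19.8 to 29.8 CPM in senescent and 23.7 to 40.0 CPM in healthy libraries (log2 fold change -0.43 ± 0.22, edgeR adjusted p = 0.14), and Irf1, an early target of interferon signalling, had -0.04 ± 0.27 (edgeR adjusted p = 0.91). Irf9 lost its call without senescent replicate 2 (edgeR adjusted p = 0.13), senescent replicate 3 (0.15), healthy replicate 1 (0.051) or healthy replicate 2 (0.054), and Irf7 was called lower without healthy replicate 3 (0.024).

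The IFIT proteins bind viral RNA and hold back its translation, and 3 of the 4 members fell. Ifit3 (ENSMUSG00000074896, chromosome 19, 34583531 to 34588731) had 6.22, 4.31 and 5.21 CPM in senescent and 17.2, 10.7 and 7.81 CPM in healthy libraries. Healthy replicate 1 was the highest of the 6, and every senescent library was below every healthy one (log2 fold change -1.18 ± 0.28, edgeR adjusted p = 0.011). Ifit3b, its close copy, had 3.01, 1.46 and 1.39 CPM against 7.71, 4.20 and 4.03 CPM (log2 fold change -1.44 ± 0.38, edgeR adjusted p = 0.017). Ifit1, which recognises RNA caps that lack a methyl group of the host, had 6.89, 3.56 and 4.46 CPM against 12.9, 8.76 and 7.28 CPM (log2 fold change -0.96 ± 0.29, edgeR adjusted p = 0.029). In all 3 genes replicate 1 was the highest of its group. Ifit2, which lies in the same cluster on chromosome 19, had 1.75 to 2.95 CPM in senescent and 1.70 to 2.06 CPM in healthy libraries, and the groups overlap (log2 fold change 0.22 ± 0.27, edgeR adjusted p = 0.53). Ifit3 and Ifit3b share 51.2% and 45.0% of their 50-base stretches with other genes, nearly all with each other, so how reads were split between them is uncertain. Ifit1 lost its call without senescent replicate 2 (edgeR adjusted p = 0.095), senescent replicate 3 (0.12), healthy replicate 1 (0.087) or healthy replicate 2 (0.054), and Ifit3b without senescent replicate 2 (0.057) or 3 (0.074).

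Of the OAS family, whose members are enzymes that make 2′-5′ linked adenylates on meeting double-stranded RNA, or their inactive relatives, 1 of 4 members was called. Oas2 had 2.71, 1.25 and 2.43 CPM in senescent and 0.943, 1.36 and 0.707 CPM in healthy libraries. Senescent replicate 2 lay within the healthy range, and the log2 fold change was 1.09 ± 0.38 (edgeR adjusted p = 0.048). These values rest on 20 to 97 counts a library, and the call was lost without senescent replicate 1 (edgeR adjusted p = 0.13), senescent replicate 3 (0.13), healthy replicate 1 (0.11) or healthy replicate 3 (0.12), and with limma-voom (limma adjusted p = 0.067). Oas1a, Oasl1 and Oasl2 had overlapping groups and log2 fold changes of 0.03, -0.28 and -0.17. Oas1a shares 57.6% of its 50-base stretches with other genes.

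The ISG15 system attaches the ubiquitin-like protein ISG15 to other proteins, and none of its 3 members was called. Isg15 had 8.51, 6.67 and 7.12 CPM in senescent and 12.0, 8.91 and 8.59 CPM in healthy libraries. All senescent values were the lower ones, yet the difference was not called (log2 fold change -0.40 ± 0.18, 95% interval -0.89 to 0.09, edgeR adjusted p = 0.10). Usp18, which removes ISG15 and blocks the receptor, and Herc6, the mouse ISG15 ligase, had log2 fold changes of -0.20 ± 0.25 and -0.17 ± 0.19. Of the Mx GTPases, which trap viral particles, Mx1 had 0.321 to 0.809 CPM and Mx2 3.76 to 7.65 CPM over all 6 libraries, with log2 fold changes of -0.04 ± 0.43 and -0.30 ± 0.28. Both loci are known to be defective in many laboratory strains, and the annotation used here lists Mx2 as a polymorphic pseudogene.

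Cmpk2 encodes a mitochondrial nucleotide kinase and is usually induced together with its neighbour Rsad2, whose product viperin makes a chain-terminating nucleotide. Here Cmpk2 rose and Rsad2 was not called. Cmpk2 (ENSMUSG00000020638, chromosome 12 of GRCm38, from 26469204 to 26479837) had 82.1, 62.9 and 75.5 CPM in senescent and 6.37, 5.49 and 3.78 CPM in healthy libraries. The lowest senescent value was far above the highest healthy one, and the log2 fold change of 3.82 ± 0.21 (edgeR adjusted p = 6.7e-06) was called in all 16 alternative settings, within 3.62 to 4.13. Rsad2 (ENSMUSG00000020641, chromosome 12, 26442746 to 26456452) had 9.85, 3.67 and 7.38 CPM in senescent and 9.30, 5.25 and 6.12 CPM in healthy libraries. Its groups overlap throughout (log2 fold change 0.01 ± 0.35, 95% interval -0.96 to 0.99, edgeR adjusted p = 0.98). The CPM of Cmpk2 over that of Rsad2 was 8.33, 17.1 and 10.2 in senescent libraries and 0.685, 1.04 and 0.618 in healthy ones. Neither gene shared a 50-base stretch with any other gene of the annotation. Per kilobase of exon, Cmpk2 moved from place 26 of the 33 in healthy cells (1.25 CPM per kb) to place 5 in senescent cells (17.7 CPM per kb), and its share of all member CPM went from 0.496% to 8.21%.

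**Figure D3:**
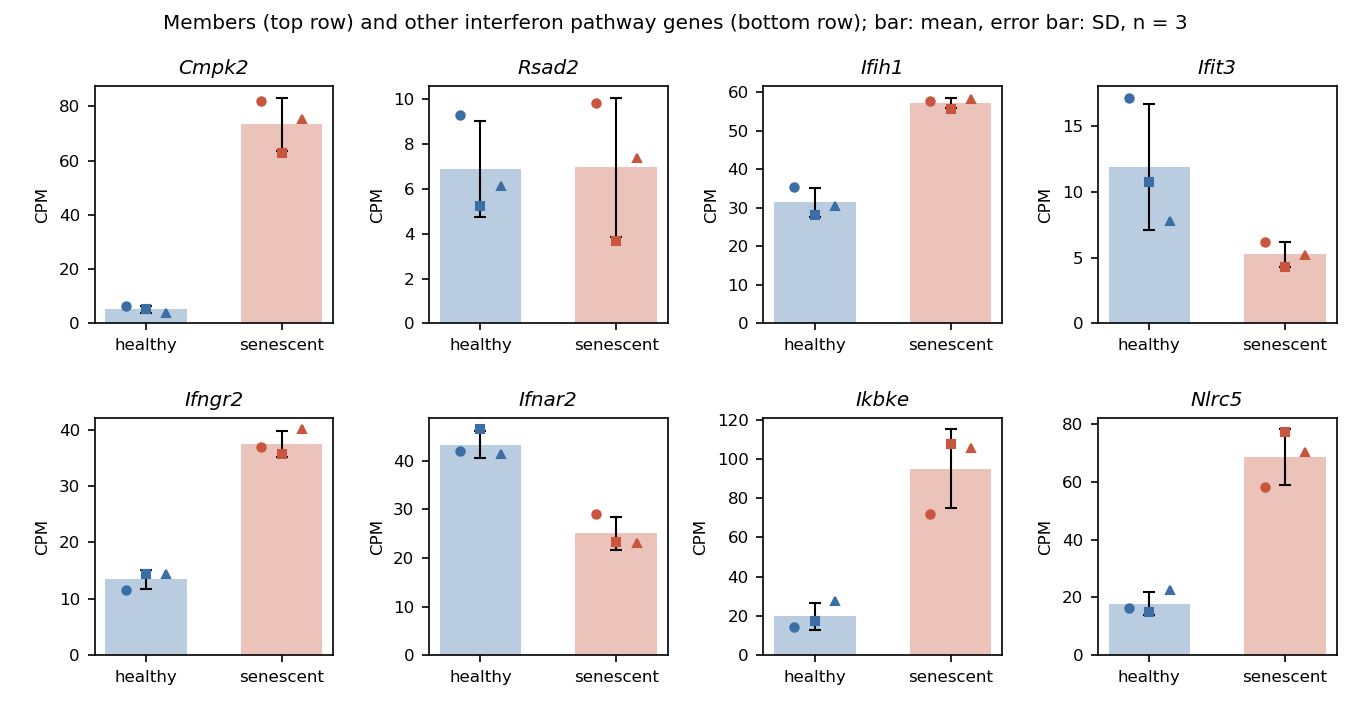
CPM of 4 members (top row) and 4 other genes of the interferon pathway (bottom row) in each library (circle, square and triangle are replicates 1, 2 and 3), with the mean as a bar and the SD as an error bar. Cmpk2 is 14.1-fold higher in senescent cells while the groups of its neighbour Rsad2 overlap, and Ifngr2, Ikbke and Nlrc5 are higher while Ifnar2 is lower.

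The other antiviral effectors either fell or were not called. Bst2 (ENSMUSG00000046718, chromosome 8, 71534255 to 71537456), or tetherin, which holds budding virus at the cell surface, had 98.9, 92.0 and 77.8 CPM in senescent and 166, 156 and 97.8 CPM in healthy libraries. Healthy replicate 3 lay among the senescent values, and the log2 fold change was -0.64 ± 0.20 (edgeR adjusted p = 0.033). Rtp4, a negative regulator of the interferon response, had 7.70, 5.45 and 5.04 CPM against 16.3, 15.1 and 8.56 CPM (log2 fold change -1.13 ± 0.27, edgeR adjusted p = 0.010), with no overlap. Ifi44 had 1.48 to 2.04 CPM in senescent and 1.80 to 3.91 CPM in healthy libraries (log2 fold change -0.88 ± 0.33, edgeR adjusted p = 0.059), and Xaf1, linked to apoptosis, had a log2 fold change of -0.30 ± 0.24. Ifi44 was called lower without healthy replicate 3 (edgeR adjusted p = 0.0072) and with DESeq2 (adjusted p = 0.036). Bst2 lost its call without senescent replicate 2 (edgeR adjusted p = 0.083), senescent replicate 3 (0.14), healthy replicate 1 (0.089) or healthy replicate 2 (0.10), and Rtp4 lost it without senescent replicate 3 (0.053).

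Ifih1 (ENSMUSG00000026896, chromosome 2, 62595798 to 62646255) encodes MDA5, the cytosolic sensor of long double-stranded RNA, and rose with the smallest spread of any member among senescent libraries. It had 57.7, 55.7 and 58.3 CPM in senescent and 35.5, 28.2 and 30.5 CPM in healthy libraries. The senescent libraries differed by 1.05-fold at most, and the log2 fold change of 0.87 ± 0.12 (edgeR adjusted p = 0.00085) was called in all 16 alternative settings. Zbp1, the sensor of Z-form nucleic acid that can trigger necroptosis, had 11.8 to 17.7 CPM in senescent and 8.31 to 14.9 CPM in healthy libraries (log2 fold change 0.29 ± 0.23, edgeR adjusted p = 0.35). The small membrane proteins of the IFI27 family leaned the same way without a call. Ifi27 had 142, 111 and 128 CPM in senescent and 119, 103 and 61.0 CPM in healthy libraries (log2 fold change 0.43 ± 0.23, edgeR adjusted p = 0.17), and healthy replicate 1 lay inside the senescent range. Ifi27l2a, at 0.601 to 2.55 CPM, had a log2 fold change of 0.53 ± 0.45.

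The GBP and IRG GTPases, the effectors known to depend most on interferon gamma, held 2 of the 9 members that fell. Iigp1, the member with the most reads, had 216, 206 and 204 CPM in senescent and 286, 332 and 442 CPM in healthy libraries. The senescent libraries were close together and all lower (log2 fold change -0.76 ± 0.17, edgeR adjusted p = 0.0081), and its share of member CPM was 33.6% in healthy and 23.3% in senescent cells. Irgm1 (ENSMUSG00000046879, chromosome 11, 48861968 to 48871683), a regulator of the other IRG proteins and of autophagy, had 39.6, 36.5 and 30.9 CPM against 72.0, 43.2 and 60.9 CPM (log2 fold change -0.72 ± 0.19, edgeR adjusted p = 0.017), with no overlap. Igtp had 60.7, 53.04 and 53.6 CPM in senescent and 77.6, 39.2 and 34.6 CPM in healthy libraries, where replicate 1 was the highest of the 6 (log2 fold change 0.14 ± 0.28, edgeR adjusted p = 0.70). Without healthy replicate 1 Igtp was called higher, with a log2 fold change of 0.59 (edgeR adjusted p = 0.0093). Gbp2, Gbp3 and Gbp7 had log2 fold changes of -0.49 ± 0.26, -0.71 ± 0.26 and 0.25 ± 0.15. The lowest healthy value of Gbp3 was above all its senescent ones (edgeR adjusted p = 0.058), and it was called lower without healthy replicate 3 (0.027), without the low-count filter (0.043) and with DESeq2 (adjusted p = 0.035). Irgm1 lost its call without senescent replicate 2 (edgeR adjusted p = 0.054) or 3 (0.089).

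Among the 21 members that were not called, log2 fold changes ran from -0.88 for Ifi44 to 0.53 for Ifi27l2a, and 19 were within 1.5-fold. The 95% interval of the fitted change reached beyond a 2-fold rise for 3 of them and beyond a 2-fold fall for 8. These intervals use 4 degrees of freedom and are wider than the edgeR test implies, so both counts are upper bounds. By level per kilobase of exon, the order at the top was kept: Bst2 (155 CPM per kb in healthy, 99.2 in senescent cells), Ifi27 (64.3 and 86.5), Iigp1 (60.7 and 35.9) and Igtp (25.0 and 27.6) led in both groups. Mx1 was last in both, at 0.162 and 0.158 CPM per kb. Only 5 of the 33 members had a mean of at least 50 CPM, and 19 had a mean under 10 CPM.

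The libraries of a group differed from each other in these genes together. Healthy replicate 1 had the highest value of its group for 29 of the 33 members (37.0% of all genes tested), and healthy replicate 3 the lowest for 22. Senescent replicate 1 was the highest of its group for 26 members (34.1% of all genes tested). The median ratio of the highest to the lowest library was 1.79 in healthy and 1.44 in senescent cells. Each member's deviations from its group means were set against the mean deviation of the other members over the 6 libraries, points that share library and depth. Pearson's r was above 0 for 31 members and above 0.5 for 27, led by Oasl1 (0.99), Irf1 (0.99), Ifit3 (0.98), Isg15 (0.96) and Ifit1 (0.96). It was below 0 for Herc6 (-0.83) and Iigp1 (-0.72), whose healthy values were highest in replicate 3. No values over all genes were computed for r, for the lowest library or for the ratio of highest to lowest.

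**Figure D4:**
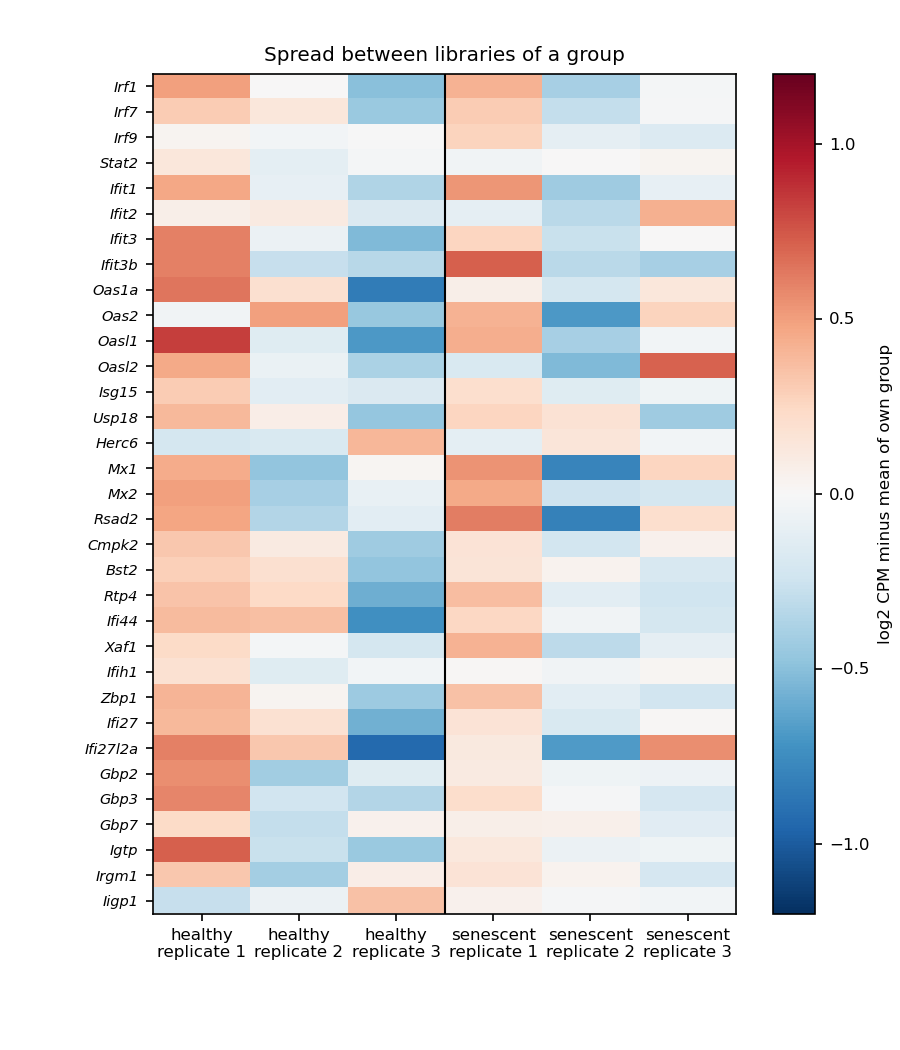
Log2 CPM of each member (rows) in each library (columns) minus the mean of its own group, red above and blue below. The columns of healthy replicate 1 and senescent replicate 1 are mostly red, and that of healthy replicate 3 mostly blue, while Iigp1 and Herc6 run the other way in the healthy libraries.

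The calls moved with single libraries, as did those of all genes. Without senescent replicate 3 the members called were 5, namely Cmpk2 and Ifih1, which rose, and Stat2, Ifit3 and Iigp1, which fell. In that fit 14.01% of all genes were called higher and 11.4% lower. Without senescent replicate 2, 3 members rose (18.3% of all genes) and 4 fell (13.8%). Without healthy replicate 3, 2 members rose (20.3% of all genes) and 12 fell (21.1%). Without both libraries numbered 1, an alternative chosen after seeing the data, 3 rose (17.2% of all genes) and 7 fell (16.9%). In that alternative Stat2 was at an edgeR adjusted p of 0.051 and Bst2 at 0.091. The members' median log2 fold change was -0.02 without healthy replicate 1 and -0.44 without senescent replicate 1.

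Other cells of the liver also express these genes. The 12 Kupffer cell or macrophage markers summed to 224, 267 and 98.2 CPM in healthy replicates 1, 2 and 3 and to 377, 242 and 488 CPM in senescent ones, and none was at 0. All 12 had a log2 fold change above 0 (median 0.90), and 2 of 12 were called higher, where 20.4% of all genes tested were. These markers were highest in healthy replicate 2 (11 of 12) and senescent replicate 3 (12 of 12), where 2 and 6 of the 33 members were highest. Markers of stellate cells were called higher for 5 of 9, beside 20.4% of all genes (sum 14.1 to 25.4 CPM in healthy, 38.8 to 55.7 in senescent libraries). For sinusoidal endothelium 2 of 9 were called higher, which is near that share (104 to 131 and 123 to 160 CPM). Markers of neutrophils summed to 0.530 to 1.38 CPM in healthy and 3.03 to 3.85 CPM in senescent libraries. Those of monocytes summed to 1.87 to 3.91 and 3.70 to 5.36 CPM. The 3 of 6 neutrophil markers that could be tested (S100a8, S100a9 and Csf3r) and 2 of the 3 tested monocyte markers (Ccr2 and Chil3) were called higher. These genes had enough counts to be tested only through the senescent libraries, so calls in that direction were favoured beforehand and carry no weight here. Markers of cholangiocytes, at 4.70 to 8.05 and 11.4 to 16.3 CPM, rose for 2 of 4 tested (20.4% of all genes did). T and NK cell markers summed to 0.0707 to 1.18 and 0.321 to 1.01 CPM and B cell markers to 0.247 to 0.700 and 0.554 to 1.04 CPM, and none could be tested. Bst2 also marks plasmacytoid dendritic cells, and of the other 6 markers of that type Cox6a2 was at 0 in all libraries, Siglech, Spib, Ccr9 and Klk1 were at most 0.335 CPM, and Tcf4 was not called. The part of these cells in the members' values was not tested.

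Upstream of the members, the interferons themselves were not seen while several receptor genes rose. Of 21 interferon genes, 20 had 0 counts in all 6 libraries, among them Ifnb1 and the Ifna genes listed, which allows up to 3 counts or 0.0837 to 0.117 CPM, and Ifng had 1 count in senescent replicate 3 and 1 in healthy replicate 1. Of the 6 receptor genes 4 rose (20.4% of all genes tested did) and 1 fell (20.7%). Ifngr2, the signalling chain of the interferon gamma receptor, had 36.8, 35.6 and 40.0 CPM in senescent and 11.5, 14.4 and 14.4 CPM in healthy libraries (log2 fold change 1.48 ± 0.13, edgeR adjusted p = 7.1e-05). Its partner Ifngr1, which binds the ligand, had a log2 fold change of 0.51 ± 0.14 (edgeR adjusted p = 0.022), which was not called without senescent replicate 3 (0.075) or healthy replicate 1 (0.058). Ifnar2 of the type I receptor went the opposite way, with 28.96, 23.2 and 23.0 CPM against 41.9, 46.4 and 41.4 CPM (log2 fold change -0.79 ± 0.13, edgeR adjusted p = 0.0018), and Ifnar1 was not called (-0.30 ± 0.14, edgeR adjusted p = 0.13). The receptor for type III interferon joins Ifnlr1 and Il10rb. Ifnlr1, counted among those that rose, had 16, 14 and 30 counts in senescent and 2, 0 and 0 counts in healthy libraries. It had enough counts to be tested only through the senescent libraries. A call in that direction was therefore favoured beforehand and carries no weight here. Il10rb had a log2 fold change of 1.04 ± 0.29 (edgeR adjusted p = 0.022), not called without senescent replicate 3 (0.077), healthy replicate 2 (0.063) or healthy replicate 3 (0.054).

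Of the kinases and STATs, 1 of 5 tested was called, beside 41.1% of all genes. Tyk2, the kinase of the type I receptor, rose from 24.7 ± 0.565 to 37.0 ± 0.681 CPM (SD, n = 3, log2 fold change 0.58 ± 0.09, edgeR adjusted p = 0.0019). With total library size 3 of the 5 were called higher (37.5% of all genes). Of 12 negative regulators tested 2 rose (20.4% of all genes), and 5 did so with total library size (37.5% of all genes). Pias3, an inhibitor of STAT3, rose 4.42-fold to 21.3 ± 2.73 CPM (edgeR adjusted p = 2.6e-05). Ptpn1, a phosphatase of JAK2 and TYK2, rose 1.31-fold (edgeR adjusted p = 0.026) and was not called without senescent replicate 2 (0.063), senescent replicate 3 (0.091), healthy replicate 1 (0.073) or healthy replicate 2 (0.077).

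The sensors and kinases that lead to interferon production held 7 genes that rose and 1 that fell of 21 tested. Of all genes tested 20.4% rose and 20.7% fell. The median log2 fold change of the list was 0.25. Ikbke, a kinase that activates IRF3 and IRF7, had 72.1, 108 and 105 CPM in senescent and 14.5, 17.7 and 27.6 CPM in healthy libraries, a rise of 4.77-fold (edgeR adjusted p = 0.00035). Nlrc5, the transactivator of MHC class I genes, rose 3.83-fold to 68.5 ± 9.60 CPM (edgeR adjusted p = 0.00013). The groups of neither gene overlapped. Mavs, the adaptor through which MDA5 signals, fell from 83.6 ± 9.96 to 54.1 ± 2.09 CPM (log2 fold change -0.63 ± 0.12, edgeR adjusted p = 0.0041), so that the gene of the sensor and that of its adaptor changed in opposite directions. With total library size Mavs was not called (edgeR adjusted p = 0.061) and 12 genes of the list were called higher (37.5% of all genes). The endosomal RNA receptor Tlr7 (2.90-fold, edgeR adjusted p = 0.016) and the adaptor Traf3 (1.38-fold, edgeR adjusted p = 0.020) also rose. Tlr7 had 9, 15 and 13 counts in healthy libraries, and would not have been tested without the higher senescent counts. Tlr7 was not called without senescent replicate 3 (0.066), nor Traf3 without senescent replicate 3 (0.066), healthy replicate 1 (0.052) or healthy replicate 2 (0.066). Ddx58, the gene of the related sensor RIG-I, had 23.4 to 25.6 CPM (log2 fold change 0.06 ± 0.10, edgeR adjusted p = 0.64). The DNA-sensing pair was picked out after its values were seen: Cgas had at most 0.434 CPM and could not be tested, and Tmem173, or STING, had 1.07 to 1.12 CPM in senescent and 0.428 to 0.674 CPM in healthy libraries (edgeR adjusted p = 0.044), a call lost in each of the 6 fits that left out 1 library (0.062 to 0.13).

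Of the genes of RNase H2, a nuclease that clears self nucleic acid, the catalytic subunit and a partner fell. Rnaseh2a, the catalytic subunit, had 6.50, 5.28 and 6.46 CPM in senescent and 14.1, 16.0 and 10.1 CPM in healthy libraries (log2 fold change -1.14 ± 0.19, edgeR adjusted p = 0.0024). Its partner Rnaseh2c also fell (log2 fold change -0.69 ± 0.16, edgeR adjusted p = 0.011), a call lost without senescent replicate 3 (0.062) and with total library size (0.089). Trex1 was listed at 0 in all 6 libraries.

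Interferon-stimulated genes outside the 33 also moved in both directions. In a wider list 9 of 63 tested rose (20.4% of all genes did) and 16 fell (20.7%), with a median log2 fold change of 0.16. With total library size 22 rose (37.5% of all genes) and 6 fell (9.92%). The risen genes with the smallest p were Parp10 (3.43-fold, edgeR adjusted p = 2.2e-05), Parp11 (3.67-fold, edgeR adjusted p = 2.2e-05), both ADP-ribosyltransferases, Mlkl (2.94-fold, edgeR adjusted p = 0.00034), the executor of necroptosis that acts downstream of ZBP1, and Pml (1.95-fold, edgeR adjusted p = 0.00076), the scaffold of nuclear bodies and also a p53 target. Those that fell were Ube2l6 (2.26-fold, edgeR adjusted p = 0.00031), the conjugating enzyme for ISG15, the chemokine Cxcl9 (3.15-fold, edgeR adjusted p = 0.0011), the IRG gene Ifi47 (2.21-fold, edgeR adjusted p = 0.0033) and Nampt (1.77-fold, edgeR adjusted p = 0.0046), an enzyme of NAD synthesis. Ube2l6 was the gene called among the 6 of the ISG15 conjugation system, 3 of which are members here. Of 13 GBP and IRG genes tested outside the 33, with Ifi47 counted here again, 0 rose (20.4% of all genes did) and 6 fell (20.7%). With total library size 5 fell (9.92% of all genes). An unadjusted edgeR p under 0.05 was found for 6 of the 13. Gbp11 had 3.21, 1.87 and 1.22 CPM in senescent and 10.2, 13.9 and 6.19 CPM in healthy libraries (log2 fold change -2.26 ± 0.39, edgeR adjusted p = 0.0027), and Gbp10 had 7.42, 3.41 and 3.36 CPM against 17.6, 14.4 and 17.2 CPM (log2 fold change -1.79 ± 0.30, edgeR adjusted p = 0.0022). Both have close relatives in the same gene cluster, so how reads were split among them is uncertain. Gm4951, an IRG gene related to Iigp1, fell from 108 ± 10.9 to 65.8 ± 6.84 CPM (log2 fold change -0.72 ± 0.13, edgeR adjusted p = 0.0028).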

How the data were processed

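Gene expression was measured by RNA-seq in 6 hepatocyte samples, 3 in each group by their titles. The deposited table holds whole-number read counts per gene, not normalised. The submitters' processing notes name FastQC, MultiQC 1.3, cutadapt 1.16, STAR 2.7.1a, featureCounts, DESeq2 1.34.0 and GRCm38. With annotation release and strand setting not given in the sources used here, overlapping and near-identical genes are uncertain. Healthy replicate 2 was matched to a column whose name differs from its code in 1 letter, and results without that library are given. Symbols were found for 31976 IDs (99.7%), coordinates and exon lengths come from GENCODE M21.

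Counts were tested with edgeR 4.0.16 (R 4.3.3), quasi-likelihood F test, two-sided, filterByExpr (minimum count 10, total 15), TMM scaling, no covariate, Benjamini-Hochberg adjustment over 12949 genes, called under 0.05. CPM use TMM-scaled library sizes, and SE is the log2 fold change over the square root of F, with 95% intervals from a t quantile at 4 degrees of freedom. Such intervals are wider than the F test implies. Alternatives were DESeq2 1.42.0, limma-voom 3.58.1, RLE or total library size scaling, no filter, a mean of 1 CPM, the 50 most abundant genes removed, each library left out, the replicate number as a block and a threshold of 0.01. Every member is named, and of each pathway list up to 4 genes called with the smallest p in each direction; some genes of the lists are not reported here. The members and lists were chosen with earlier results of these data known. The fits were tested on simulated data.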

Additional observations from a re-analysis of the deposited data

How the results depend on the processing

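Of all genes, 5324 were called, 3068 at an adjusted p under 0.01, and 3325 to 5480 when 1 library was left out, the lowest without senescent replicate 3. Members called higher numbered 3, or 5 with total library size, and 2 to 3 with 1 library left out. Members called lower numbered 9 (20.7% of all genes), or 3 with total library size (9.92%) and 2 at an adjusted p under 0.01 (11.6%). With 1 library left out those called lower numbered 3 to 12 (11.4% to 21.1% of all genes). The members' median log2 fold change was -0.28, changed sign to 0.040 under total library size scaling, and with 1 library left out lay between -0.44 and -0.023. No member changed sign while called. DESeq2, limma-voom, RLE scaling, both filters and removal of the most abundant genes gave 2 to 3 members higher and 9 to 11 lower. Of all genes, 14.9% to 21.2% were higher and 14.5% to 21.7% lower in these fits. The cause of these differences was not tested.

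The replicate numbers gave no clear pairing of the samples. Deviations of same-numbered libraries correlated at 0.25, -0.20 and 0.02, and not every library correlated best with its own number. Healthy replicate 1 did so, while healthy replicate 3 correlated best with senescent replicate 2 (0.39). Deviations from a mean of 3 libraries constrain each other, so these values cannot decide whether samples were paired. With the replicate block 2 members were higher (19.9% of all genes) and 10 lower (20.3%). Oas2 lost and Gbp3 gained its call, and 5201 genes were called. Counts of 11 to 97 in Mx1 and Oas2 limit what could be detected there.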
